A study of Mus musculus with 4 samples.

Results

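The pyramidal neurons of the hippocampus lie in 3 fields, CA1, CA2 and CA3, and each field has genes whose RNA is concentrated in it. Here 9 such genes were followed as markers: Wfs1, Fibcd1 and Mpped1 for CA1, Pcp4, Rgs14, Amigo2 and Cacng5 for CA2, and Coch and Iyd for CA3. They were taken by symbol, and all 9 were found among the 37325 genes of the array. The tissue was hippocampus of wild-type (WT) mice and of mice with a knockout of 1 copy of Rp58 (hetero-KO; the gene's current symbol is Zbtb18). Both genotypes were sampled at 4 and at 18 months of age, and each of the 4 groups was measured on 1 Cy3-labelled Agilent array, from 200 ng of RNA mixed from 3 samples. The older mice carry an age label of 18 months and a title of 1.5 years, but their descriptions give 12 to 18 months. Sex and strain are not given, nor the part of the gene that was deleted. Pooling leaves the spread between mice unmeasured.

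Signals travel through the hippocampus from dentate granule cells to CA3 pyramidal cells and on to CA1, the main output field, while CA2 is a narrow zone between CA3 and CA1 that is known for its part in social memory. The fields differ in gene expression by small sets of genes of many functions, which serve to tell them apart in tissue sections. Rp58 is a zinc finger repressor that binds a form of the E-box and is needed for the development of excitatory neurons in cortex and hippocampus. Marker RNA in a whole hippocampus reflects both the number of cells and the RNA in each cell, and fewer cells of a type and less RNA per cell cannot be told apart in these pools.

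The levels below are the spot signal divided by the 75th percentile of all signals on the same array, and differences are given as log2. That percentile was 1714 to 2111 intensity units, and 77.9% to 81.9% of the spots were well above background. Each marker was well above background on all 4 arrays and saturated on 0. The scanner software's own error for a spot gives an error of about 0.20 for a log2 difference between a pair of arrays, and of 0.29 to 0.41 for Iyd, the dimmest of the markers by its place among all genes. This error covers the spot and not the mice. A pair of arrays has no replicate, so such a difference has no test and was called when it reached 2-fold. The 4 arrays together were fitted with limma as genotype plus age, which leaves 1 residual degree of freedom.

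The targeted gene did not separate the genotypes. On the 4-month arrays Zbtb18 read 17.5 (WT) and 15.2 (hetero-KO), and on the 18-month arrays 18.9 and 21.4. The Y-linked genes Eif2s3y, Ddx3y and Uty did not exceed background in the 4-month hetero-KO pool, and Xist did not on either 18-month array. The 4-month WT pool had both Xist (0.164) and Eif2s3y (0.673) above background. The pools thus differ in sex makeup between the ages and, at 4 months, between the genotypes, and its part in either comparison cannot be told apart.

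The markers' probes are 60 bases long and are placed by the array files on mouse build mm9. The CA1 probes lie on chromosome 5 at 37357424 to 37357483 for Wfs1, chromosome 2 at 31669627 to 31669686 for Fibcd1 and chromosome 15 at 83688813 to 83688872 for Mpped1. The CA2 probes lie on chromosome 16 at 96747241 to 96747300 for Pcp4, chromosome 13 at 55485762 to 55485821 for Rgs14, chromosome 15 at 97075262 to 97075321 for Amigo2 and chromosome 11 at 107736263 to 107736322 for Cacng5. Those of CA3 lie on chromosome 12 at 52706487 to 52706546 for Coch and chromosome 10 at 6792120 to 6792179 for Iyd. Which exon or untranslated part each probe hits was not analysed here.

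The promoters of the 4 markers with the largest differences are shown, since the deleted gene encodes a protein that binds DNA. They are RefSeq sequences of build GRCm38.p6, from 250 bases before to 50 bases after the start of the gene, written from 5′ to 3′ on the gene's strand, with every CANNTG, the general E-box, in capitals. Wfs1 (chr5:36988933-36989232, minus strand) and Iyd (chr10:3540024-3540323, plus strand) were lower in hetero-KO at both ages. Pcp4 (chr16:96467356-96467655, plus strand) and Coch (chr12:51593091-51593390, plus strand) were lower at 18 months in both genotypes.
Wfs1: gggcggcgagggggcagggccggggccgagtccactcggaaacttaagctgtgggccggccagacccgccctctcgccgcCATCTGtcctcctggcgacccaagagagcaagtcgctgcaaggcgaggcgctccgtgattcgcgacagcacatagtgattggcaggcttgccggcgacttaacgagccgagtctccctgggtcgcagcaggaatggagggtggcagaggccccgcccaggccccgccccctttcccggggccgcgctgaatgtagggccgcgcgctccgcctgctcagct
Iyd: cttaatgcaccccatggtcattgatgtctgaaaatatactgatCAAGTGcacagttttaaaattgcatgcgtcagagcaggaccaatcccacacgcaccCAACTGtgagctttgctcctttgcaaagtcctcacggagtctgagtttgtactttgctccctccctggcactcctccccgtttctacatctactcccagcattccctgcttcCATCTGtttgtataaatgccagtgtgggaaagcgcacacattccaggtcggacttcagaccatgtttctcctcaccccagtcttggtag
Pcp4: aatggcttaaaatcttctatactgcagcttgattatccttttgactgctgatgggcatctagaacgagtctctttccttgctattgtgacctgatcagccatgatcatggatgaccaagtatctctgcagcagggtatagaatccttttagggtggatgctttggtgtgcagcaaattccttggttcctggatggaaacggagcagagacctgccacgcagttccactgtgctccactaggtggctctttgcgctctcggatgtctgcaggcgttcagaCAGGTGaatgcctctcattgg
Coch: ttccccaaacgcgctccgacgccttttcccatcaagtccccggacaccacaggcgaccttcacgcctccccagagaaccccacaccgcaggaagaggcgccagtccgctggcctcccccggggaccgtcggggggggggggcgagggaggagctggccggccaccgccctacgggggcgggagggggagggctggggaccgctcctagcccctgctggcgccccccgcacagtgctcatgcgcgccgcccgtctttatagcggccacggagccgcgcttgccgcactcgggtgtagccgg

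Entries were found for 8 of the 9 markers, all except Rgs14, with 10 promoters in all. ACATCTG, the core of the motif that the repressor is known to bind, was searched on both strands and was in 0 of these 10 promoters, against 4.43% of all 32851 promoters of this length. Its shorter form CATCTG, which is contained in ACATCTG and is itself a CANNTG, was in the promoters of Wfs1, 170 bases before the start, and of Iyd, 39 bases before it; 17.2% of all promoters hold it. The Pcp4 window holds 1 CANNTG, 29 bases after the start, and the Coch window holds none, against 72.3% of all promoters with at least 1. A match is a run of letters and not a measured binding site. The absence of a run of letters from such a window likewise says nothing about the factor.

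Among the CA1 markers, Wfs1 was lower in hetero-KO at both ages, by 1.64-fold at 4 months and 1.69-fold at 18 months, while Fibcd1 and Mpped1 were not. All 3 were higher at 18 months than at 4 in both genotypes, by 0.19 to 0.35 on the log2 scale, but after centring on neuron genes the hetero-KO differences were −0.07 to 0.01. Wfs1 encodes wolframin, a membrane protein of the endoplasmic reticulum that marks CA1 pyramidal cells and is also present in parts of the striatum, amygdala and superficial cortex. At 4 months it read 8.50 (WT) and 5.18 (hetero-KO), and at 18 months 10.4 (WT) and 6.15 (hetero-KO). Both hetero-KO arrays lay below both WT arrays, and the lower WT array was 0.47 above the higher hetero-KO array. The log2 difference between genotypes was −0.71 at 4 months and −0.76 at 18 months, each more than 3 times the spot error of 0.20.

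In the fit over both ages, Wfs1 had a genotype difference of −0.73 ± 0.042 (SE), with an unadjusted p of 2e-05 and an adjusted p of 0.0632 by limma with Benjamini-Hochberg adjustment over 29071 genes, and so did not pass 0.05. Of all genes tested, 3 passed, or 0.0103%, and all were higher in hetero-KO; 3332 genes had an unadjusted p under 0.05. None of the 9 markers passed; besides Wfs1, only Fibcd1 had an unadjusted p under 0.05 (0.0331, adjusted 0.406). Among the 27365 genes measured on all 4 arrays the adjusted p of Wfs1 was 0.0446. After centring on 15 neuron genes its difference was −0.80 ± 0.084 (SE), with a limma adjusted p of 0.000253. In that setting 109 genes were higher and 403 lower past the threshold. The SE of Wfs1 was larger there than the 0.042 as fitted, so the lower p is no sign of a more precise Wfs1 difference. Over 9 settings with the scanner data its limma adjusted p ran from 0.000253 to 0.761 and passed in 2. A rule of 1.5-fold or more below WT at both ages, chosen after the values were seen, was met by Wfs1 alone of the 9 markers and by 131 genes in all, or 0.479%.

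**Figure D1:**
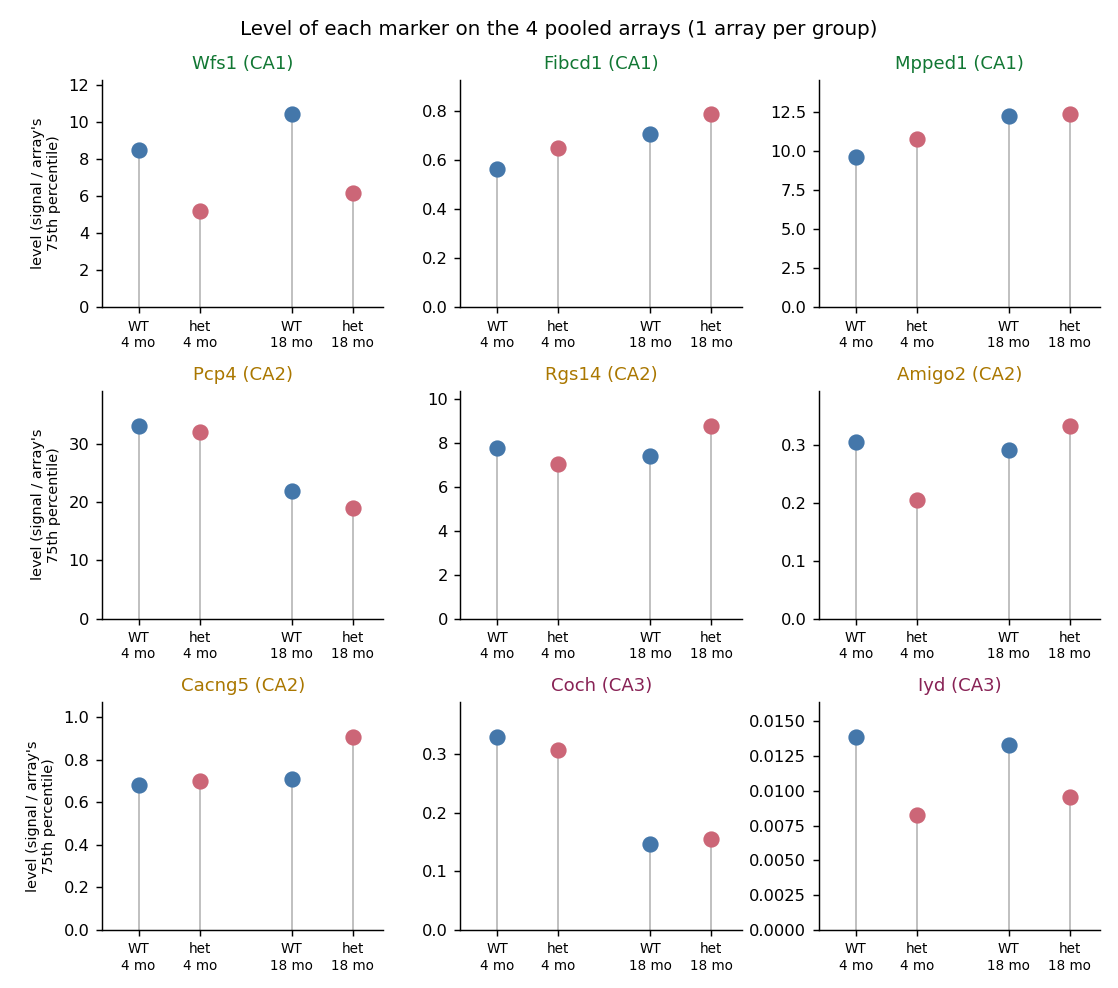
Level of each marker (spot signal over the array's 75th percentile, linear axis from 0) on the 4 arrays, 1 point per array, WT in blue and hetero-KO (het) in red, at 4 and 18 months. Both WT arrays lie above both hetero-KO arrays for Wfs1 (8.50 and 10.4 against 5.18 and 6.15) and for Iyd. The ages do not overlap for Pcp4 and Coch (lower at 18 months) or for Fibcd1, Mpped1 and Cacng5 (higher). Among all genes measured on all arrays, the genotypes do not overlap for 33.1% and the ages for 50.4%.

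Fibcd1, which encodes a receptor of the cell surface for acetylated compounds, read 0.564 (WT) and 0.651 (hetero-KO) on the younger pair of arrays and 0.707 and 0.787 on the older pair. Its lowest array was WT at 4 months, and the steps from the second array upwards were within the spot error. Mpped1, a gene of the metallophosphoesterase family, read 9.59 and 10.8 on the younger pair and 12.2 and 12.3 on the older pair. None of the steps between its neighbouring arrays exceeded the spot error. For both genes the 18-month arrays lay above the 4-month arrays, and hetero-KO stood above WT by 0.21 and 0.15 for Fibcd1 and by 0.17 and 0.01 for Mpped1 at 4 and 18 months.

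Age differences of the CA1 markers over both genotypes were 0.27 ± 0.042 (SE) for Wfs1, 0.30 ± 0.060 for Fibcd1 and 0.27 ± 0.053 for Mpped1, with limma adjusted p of 0.0565, 0.0773 and 0.0748. None passed; among genes measured on all 4 arrays Wfs1 did, with an adjusted p of 0.0491. Genes of neurons in general were higher at 18 months as well: all 7 forebrain excitatory neuron genes (median 0.27, with Camk2a past the threshold) and 7 of 8 general neuron genes (median 0.16, with Syt1 past it). With quantile normalization only 3 of the 8 general neuron genes were higher at 18 months (median −0.06), against 6 of the 7 excitatory ones (median 0.17). Neither call held there: Camk2a was at 0.21 (adjusted p = 0.107) and Syt1 at 0.06 (adjusted p = 0.486). After centring on these 15 neuron genes, the age differences of the CA1 markers were 0.14 to 0.20 in WT. The median over all genes was 0.04 in both genotypes before that centring, and −0.11 in WT and −0.21 in hetero-KO after it.

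Mpped1 had 3 probes, of which the brightest was used. The dimmer ones, on chromosome 15 at 83610019 to 83610078 and at 83613731 to 83613790, had levels of 0.0116 to 0.0223 and 0.0560 to 0.0706. At 18 months the first of them was lower in hetero-KO by 0.74 on the log2 scale and the second higher by 0.10, against 0.01 for the brightest probe. The 3 probes of this gene therefore disagree, and the other 8 markers have 1 probe each.

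Of 8 other CA1 markers, 6 were lower in hetero-KO at 4 months (median −0.10) and 7 at 18 months (median −0.11), and 0 passed for genotype by limma, with the same sign of both medians under the 3 other scalings. The largest differences at 4 months were those of Lefty1, a signalling protein of the TGF-beta family (−0.50), Ccn3, a secreted matrix protein (0.46), Spink8, a protease inhibitor (−0.40), and Man1a, a mannosidase (−0.25). At 18 months Man1a differed most (−0.44). With age, Pou3f1, a transcription factor, rose by 0.34 ± 0.046 (SE; limma adjusted p = 0.0497), and the other 7 did not pass. Over 9 settings with the scanner data the adjusted p of Pou3f1 ran from 0.0434 to 0.319 and passed in 2; after neuron centring its difference was 0.14. The younger pools held Spink8 at 5.61 (WT) and 4.26 (hetero-KO), the older ones at 6.79 and 6.60.

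Pcp4 was the CA2 marker that changed with age: it fell by 1.60-fold over both genotypes. Amigo2 and Rgs14 were lowest in hetero-KO at 4 months and highest in hetero-KO at 18 months. Cacng5 was highest on the same 18-month array. After centring on neuron genes Cacng5 kept this place, but Amigo2 and Rgs14 were highest in WT at 4 months. Rgs14 was then lowest in WT at 18 months, and its age difference in hetero-KO was 0.06. Pcp4 encodes a small protein that binds calmodulin, and besides CA2 it is expressed in the dentate gyrus, striatum and thalamus. It read 33.1 (WT) and 32.1 (hetero-KO) in the younger pools, against 21.9 and 19.0 in the older ones. The 4-month arrays did not overlap the 18-month arrays and lay at least 0.55 above them on the log2 scale, while the genotypes differed by −0.04 and −0.20, within the spot error. The age difference was −0.60 in WT and −0.75 in hetero-KO, and −0.68 ± 0.051 (SE) over both, with a limma adjusted p of 0.0307.

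Of the 9 markers, 2 passed the age test, Pcp4 and Coch, and both fell; 2.11% of all 29071 genes passed, 425 higher (1.46%) and 187 lower (0.643%). With quantile normalization this split was 53 higher and 117 lower. The same 2 markers were at least 1.5-fold lower at 18 months in both genotypes, as were 237 genes, or 0.866%. In 0 of the 4 pairs of arrays was Pcp4 at least 2-fold apart. Without a filter on dim genes, without the variance trend or when a gene's probes were averaged, 0 of the 9 passed; the adjusted p of Pcp4 was then 0.146, 0.319 and 0.0823. In those settings, 0, 0 and 14 genes of all passed for age. Over the 9 scanner settings the adjusted p of Pcp4 ran from 7.78e-06 to 0.319 and passed in 6. The lowest was that after neuron centring, where the SE was larger, at 0.078 against 0.051 as fitted.

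Rgs14 encodes a regulator of G protein signalling that limits synaptic plasticity in CA2. Rgs14 read 7.77 (WT, 4 months), 7.02 (hetero-KO, 4 months), 7.41 (WT, 18 months) and 8.78 (hetero-KO, 18 months), with no step between neighbouring arrays beyond the spot error. Amigo2 encodes a cell adhesion protein with leucine-rich repeats. Its 2 WT arrays were close, at 0.305 (4 months) and 0.291 (18 months), while its hetero-KO arrays read 0.206 and 0.334. The hetero-KO array of 4 months was 0.50 below the next one, and the other 3 arrays differed by less than the spot error from neighbour to neighbour. Cacng5 encodes an auxiliary subunit of AMPA receptors. Of its arrays, 3 were close, at 0.682 (WT, 4 months), 0.701 (hetero-KO, 4 months) and 0.711 (WT, 18 months), and the hetero-KO array of 18 months was 0.35 higher on the log2 scale, at 0.909.

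The genotype difference of Amigo2 was −0.57 at 4 months and 0.20 at 18 months, and its age difference −0.07 in WT and 0.70 in hetero-KO. For Rgs14 the genotype differences were −0.14 and 0.25, and for Cacng5 0.04 and 0.35. How the genotype difference changes with age has no residual degree of freedom in 4 arrays and was not tested; the change was 0.76 for Amigo2, 0.39 for Rgs14 and 0.31 for Cacng5. These 3 genes had limma adjusted p of 0.485 to 0.855 for genotype and 0.251 to 0.503 for age.

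**Figure D2:**
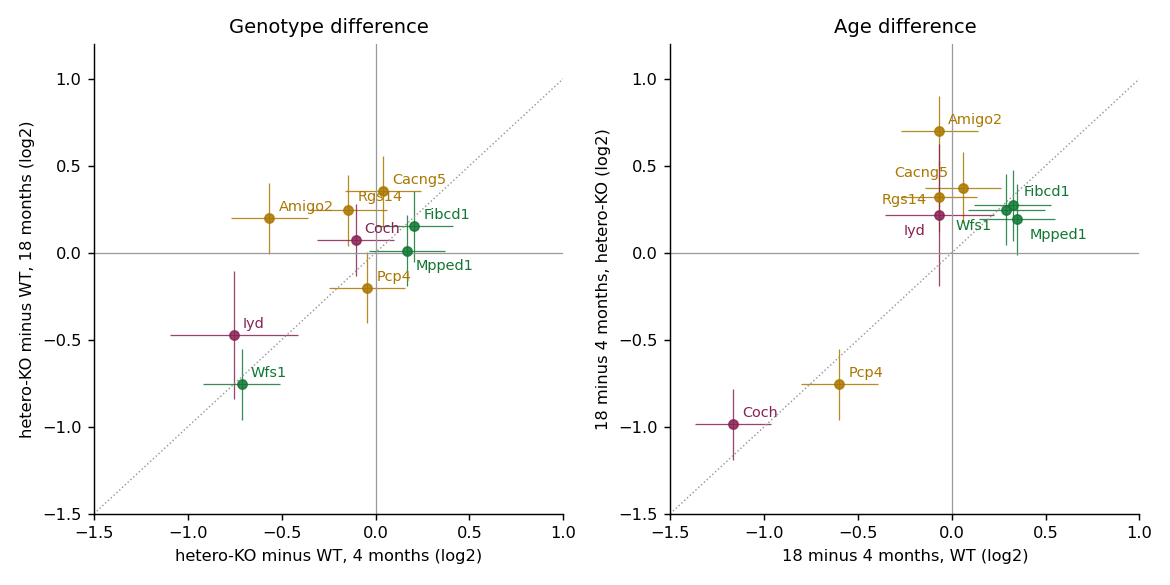
Log2 differences of the 9 markers: hetero-KO minus WT at 4 months against 18 months (left), and 18 minus 4 months in WT against hetero-KO (right); bars are the scanner software's spot error and the dotted line marks equal differences. Wfs1 lies near the line at −0.71 and −0.76 for genotype, Coch and Pcp4 lie low in both genotypes for age, and Amigo2 is off the line in both panels.

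Among 9 other CA2 markers, 8 were lower in hetero-KO at 4 months (median −0.14) and 5 were higher at 18 months (median 0.24), where Avpr1b was the only one at least 2-fold apart. The largest 4-month differences were those of Avpr1b, the vasopressin receptor of CA2 (−0.67), Ntf3, the growth factor neurotrophin-3 (−0.53), Map3k15, a protein kinase (−0.49), and Dusp5, a phosphatase (0.36). For Avpr1b the WT arrays read 0.0986 (4 months) and 0.102 (18 months), and the hetero-KO arrays 0.0622 and 0.226, the lowest and the highest of the 4. Taking the 4 CA2 markers and these 9 together, 9 of 13 (69.2%) had their lowest level on the hetero-KO array of 4 months. On that of 18 months 8 of 13 (61.5%) had their highest. The 13 include the CA2 markers whose values showed this order above, so the count is a description and no test of it. Of the 9 others alone, 7 (77.8%) were lowest on the first of these arrays and 5 (55.6%) highest on the second. Over all genes measured on all arrays these shares were 32.0% and 30.3%. Other lists had high shares too: 4 of 7 forebrain excitatory neuron genes (57.1%) and 6 of 8 dentate granule cell markers (75%) were lowest on the hetero-KO array of 4 months. On that of 18 months 6 of 7 excitatory neuron genes (85.7%), 7 of 8 general neuron genes (87.5%) and 6 of 8 other CA3 markers (75%) were highest. With age, all 9 other CA2 markers were higher over both genotypes (median 0.45), against 6 of 9 after neuron centring (median 0.24), and 1, Dusp5, rose (0.45 ± 0.052 SE; limma adjusted p = 0.0454). The adjusted p of Dusp5 ran from 0.0397 to 0.319 over the 9 scanner settings and passed in 2.

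Coch was the CA3 marker that changed with age: it fell by 2.11-fold over both genotypes. Iyd, the dimmest of the 9 markers, was lower in hetero-KO at both ages. Coch encodes cochlin, a secreted matrix protein best known from the inner ear. Young pools read 0.329 (WT) and 0.306 (hetero-KO), and old pools 0.147 and 0.155. The arrays of each age lay within 0.11 of each other on the log2 scale, and the ages were 0.99 apart at their nearest. The age difference was −1.17 in WT and −0.99 in hetero-KO, and −1.08 ± 0.088 (SE) over both, with a limma adjusted p of 0.0325. Its genotype differences of −0.11 and 0.07 were within the spot error.

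Coch in WT, 2.24-fold lower at 18 months, was the only case of a marker at least 2-fold apart in the 4 pairs that differ in 1 factor. In the WT pair of ages 1.6% of genes were called, and in the hetero-KO pair of ages, where 0 of the 9 markers were, 2.2%. At 4 months 1.32% of genes and at 18 months 1.14% were at least 2-fold apart between the genotypes, and 0 of the 9 markers in either. With normexp background the adjusted p of Coch was 0.0569 and its WT difference −0.98, and without a filter, without the trend or when a gene's probes were averaged its adjusted p was 0.146, 0.319 and 0.0823. Over the 9 scanner settings it ran from 5.08e-06 to 0.319 and passed in 5. Its lowest value was also that after neuron centring, where the SE was larger, at 0.109 against 0.088 as fitted.

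Iyd encodes iodotyrosine deiodinase, an enzyme that recovers iodide in the thyroid. The WT arrays read 0.0139 (4 months) and 0.0133 (18 months), and the hetero-KO arrays 0.00824 and 0.00957. Both hetero-KO arrays lay below both WT arrays, by 0.75 at 4 months and 0.47 at 18 months, against spot errors of 0.34 and 0.37. The fit gave −0.61 ± 0.27 (SE; limma adjusted p = 0.473). Only 0.921% of the genes measured on all arrays had a mean level as low. With normexp background, which treats dim spots differently, the differences were −0.13 at 4 months and −0.10 at 18 months.

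Of 8 other CA3 markers, 7 were higher in hetero-KO at 4 months (median 0.12) and 6 at 18 months (median 0.12; 4 of 8 after neuron centring), and 0 passed for genotype or for age by limma. The largest 4-month differences were those of Plagl1, a transcription factor (0.68), Grik4, a kainate receptor subunit (0.27), Nectin3, an adhesion protein of CA3 synapses (0.22), and the potassium channel Kcnq5 (−0.17). Bok, a relative of the BCL2 proteins, had levels of 7.13, 7.24 and 6.97 on the first 3 arrays and 11.1 in hetero-KO at 18 months. Over both genotypes the largest age differences were those of Csf2rb2 (0.36), Grik4 (0.34), Bok (0.29) and Plagl1 (−0.26). Coch, with −1.08, stood outside the range of this list.

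Counted over the 9 markers, the genotypes did not overlap for 2 (Wfs1 and Iyd, both lower in hetero-KO), against 33.1% of all genes, and the ages did not overlap for 5 (Fibcd1, Mpped1 and Cacng5 higher, Pcp4 and Coch lower at 18 months), against 50.4%. The share of markers whose groups did not overlap was thus no higher than that of all genes for genotype, and near it for age. A genotype difference beyond the spot error was found for 4 of 9 at 4 months and 4 of 9 at 18 months, against 24.4% and 23.7% of all genes. An age difference beyond it was found for 5 of 9 in WT and 7 of 9 in hetero-KO, against 29.2% and 32.2%. All genes were not matched to the markers in brightness, with which the spot error varies. The counts also depend on the scaling. After neuron centring the hetero-KO age differences of Wfs1 (−0.01), Fibcd1 (0.01), Rgs14 (0.06) and Cacng5 (0.12) were within the spot error. In WT the CA1 markers then fell within it, while Rgs14 and Amigo2 (−0.22 each) came to lie beyond it.

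**Figure D3:**
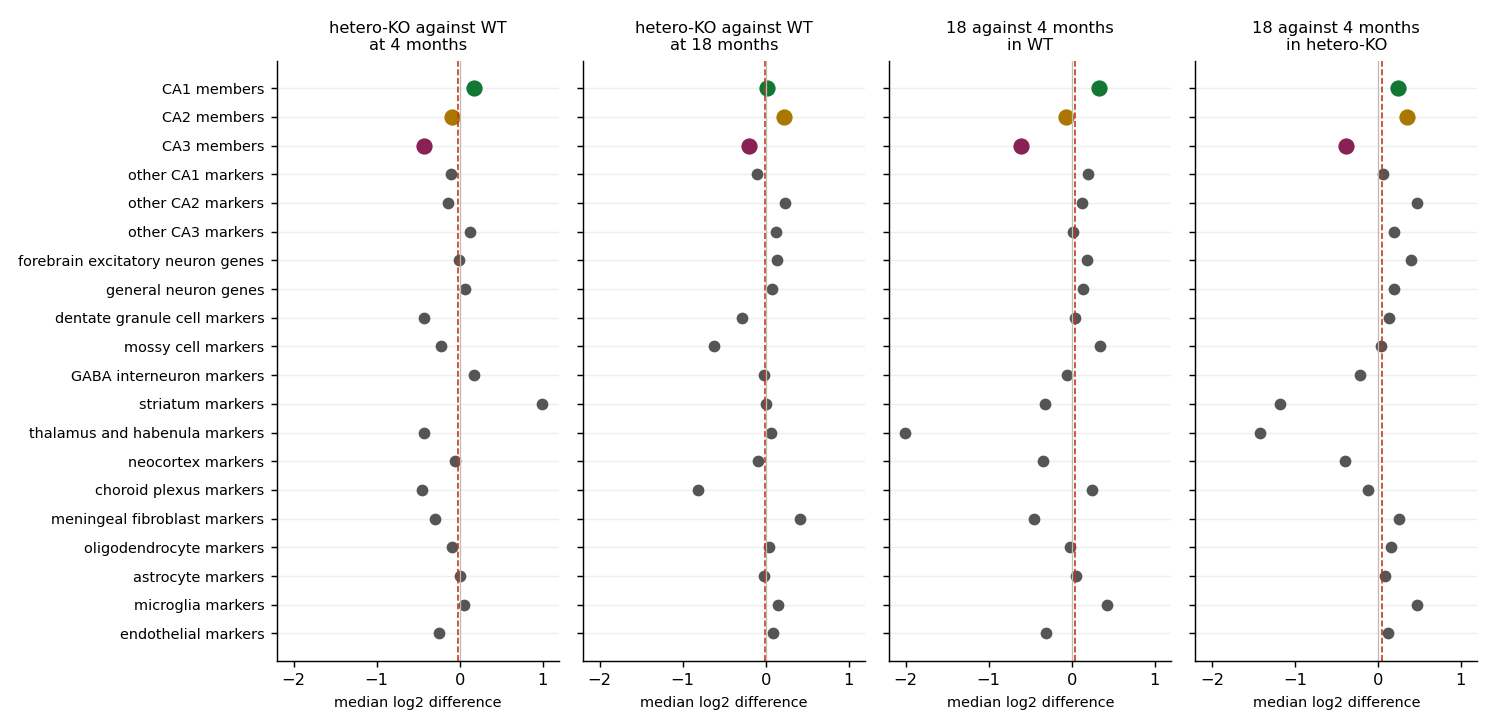
Median log2 difference of each marker list in the 4 pairs of arrays; large points are the CA1 (3 genes), CA2 (4) and CA3 (2) markers, small points the other lists, and the dashed line the median of all genes. Striatum markers stand highest at 4 months (0.99), and thalamus and habenula markers lowest with age (−2.01 in WT and −1.42 in hetero-KO).

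Markers of tissues near the hippocampus, and of the dentate gyrus within it, also differed in these comparisons. At 4 months, all 14 striatum markers were higher in hetero-KO (median 0.99, 7 of them at least 2-fold), and they summed to 27.2 (WT) and 61.3 (hetero-KO), against 26.2 and 28.8 at 18 months; none was at 0. Wfs1 and Pcp4 are both expressed in striatum. Markers of dentate granule cells, which signal to CA3, were lower in hetero-KO for 8 of 8 at 4 months (median −0.43) and 6 of 8 at 18 months (median −0.29), with summed levels of 17.0, 12.6, 19.8 and 16.4 in the order WT and hetero-KO at 4 months, WT and hetero-KO at 18 months. Choroid plexus markers were lower in hetero-KO for 14 of 14 at both ages (medians −0.45 and −0.81) under all 4 scalings, and summed to 115 (WT) and 92.3 (hetero-KO) in the younger pools and to 135 and 106 in the older ones. Their part in the genotype differences of Wfs1, Iyd and Amigo2 was not tested.

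With age, 10 of 14 thalamus and habenula markers fell by limma and 0 rose (median −2.01), against 6 to 13 under the other scalings. They summed to 47.4 (WT) and 38.1 (hetero-KO) in the younger pools, and to 21.5 and 19.1 in the older ones. Gbx2 and Gpr151 of this list were not well above background on at least 1 array. Pcp4, which is expressed in thalamus, and Coch fell in the same comparison, and the part of thalamic RNA in this was not tested. Striatum markers were lower at 18 months for 12 of 14 in WT (median −0.32) and 14 of 14 in hetero-KO (median −1.17), with 1, Scn4b, past the threshold, against 12 after neuron centring and 0 with quantile normalization. Of 5 microglia markers, 4 rose with age (median 0.46), against 2 after neuron centring (median 0.26) and 0 with quantile normalization (median 0.45).

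The genes most like Wfs1 over the 4 arrays, by the root mean square of the difference in log2 level after each gene's mean was removed, were Krt18 (0.036), Cltrn (0.040) and Klk1b9 (0.045), out of 19175 genes with an official symbol. Cltrn read 0.207 and 0.240 on the WT arrays (4 and 18 months), and 0.124 and 0.153 on the hetero-KO arrays. A total of 438 genes lay within 0.2 of Wfs1. Those most like Coch were Pdp1 (0.037), Mcf2 (0.053) and Pycr1 (0.056), and 72 genes lay within 0.2. Pdp1 read 8.46 (WT) and 7.83 (hetero-KO) in the younger pools, and 3.97 and 4.16 in the older ones. With 4 points for each gene and many genes to choose from, such likeness is a description of these arrays.

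The authors' deposited table gave other values for the markers at 18 months. Its 4-month columns are a constant multiple of the scanner levels (SD of the log2 ratio over spots 1.11e-07 in WT and 1.02e-07 in hetero-KO). Those of 18 months match no scanner file (highest correlation of log2 values over spots 0.985), and their source arrays are not known. In those columns of the authors' deposited table, Fibcd1 was at 0.0315 in WT and 0.0735 in hetero-KO, where the scanner files gave 0.707 and 0.787. Amigo2 was at 0.0573 and 0.0677 in that deposited table, Cacng5 at 0.224 and 0.287, and Rgs14 at 3.07 and 3.75. Coch was at 1.05 and 0.906 in the authors' deposited table, above both 4-month values in place of below them. Wfs1 was at 5.46 and 5.84 there, with a genotype difference of 0.10 in place of −0.76. Pcp4 was at 37.3 and 33.4 in the same deposited columns.

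Between the authors' deposited table and the scanner files, 6 of the 9 markers in WT and 5 in hetero-KO were at least 2-fold apart at 18 months, against 9.79% and 10.3% of all genes. In the deposited 18-month columns, summed neocortex markers were at 21.5 in WT and 21.7 in hetero-KO, against 4.54 and 4.22 in the scanner files. Summed dentate granule cell markers were at 4.72 and 5.26 in the authors' deposited table, against 19.8 and 16.4. Other CA1 markers summed to 13.4 and 16.0 there, against 26.6 and 25.1, and striatum markers to 81.4 and 65.2. With the deposited table, the age differences over both genotypes had the opposite sign of those from the scanner files for 8 of the 9 markers, all except Mpped1. Those of Wfs1, Fibcd1, Rgs14, Amigo2, Cacng5 and Iyd were below 0 in the authors' deposited table, and those of Pcp4 and Coch above 0.

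**Figure D4:**
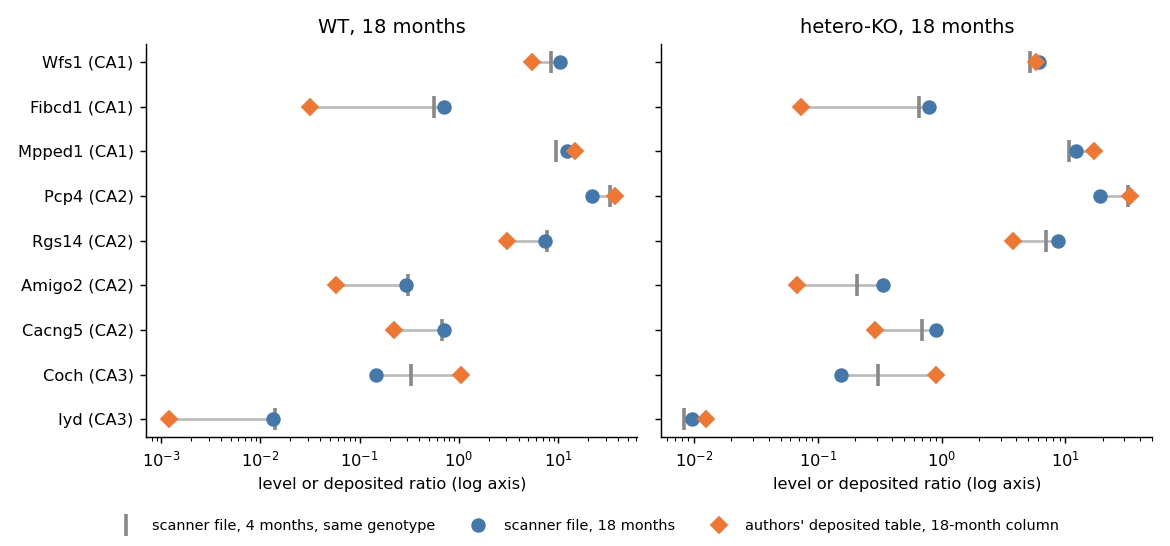
Markers at 18 months in WT (left) and hetero-KO (right) on a log axis: level from the scanner file (blue point), value in the authors' deposited table (orange diamond) and scanner level at 4 months in the same genotype (grey bar). In both genotypes the deposited values of Fibcd1, Rgs14, Amigo2 and Cacng5 lie below both scanner levels, and those of Mpped1, Pcp4 and Coch above both.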

How the data were processed

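Per the file headers, the authors' scanner files give linear spot intensity from Agilent Feature Extraction 11.5.1.1 (build mm9), with spatial trends removed, negative controls subtracted and dim spots replaced by surrogate values; other columns are the software's marks for background, saturation and outliers. The authors' deposited table holds a linear ratio. Its 4-month columns are a constant multiple of the scanner levels, and the origin of those of 18 months is unknown, so it served as an alternative only. Levels are log2 of the processed signal less the array's 75th percentile. Spots of a probe were averaged. A probe was measured if 50% or more of its spots exceeded background by the software's test, and a gene took its brightest probe. Symbols were updated through RefSeq for 1535 of 32994 matched probes. Genotype and age were fitted additively with limma 3.58.1 (R 4.3.3; eBayes with trend, Benjamini-Hochberg over 29071 genes measured on at least 2 arrays, threshold 0.05), and the code was tested on simulated data. Any change of the genotype difference with age counts as error in this fit, and its p-values rest on 4 pools and say nothing of the spread among mice. Pairs of arrays have no test. The precision is limited by the number of arrays, 1 per group.

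All 9 markers are named, with at most 4 genes of each other list, those with the largest differences in the comparison described; Spink8 and Bok in other comparisons, and Cltrn and Pdp1 by level, were singled out after their values were seen. The members and lists were chosen with earlier results of these data known. Alternatives were normexp background with quantile normalization (offset 50), quantile normalization, centring on 15 neuron genes, the mean of a gene's probes, the deposited table, other filters, no variance trend and no second factor.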

Additional observations from a re-analysis of the deposited data

Results flagged for a closer look

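For 4 markers the same comparison pointed in opposite directions in the 2 groups in which it was made. These are single pairs of pooled arrays, and the differences between the groups were not tested. Amigo2, the adhesion protein of CA2, was lower in hetero-KO at 4 months (−0.57 on the log2 scale) and higher at 18 months (0.20); its age difference was −0.07 (WT) and 0.70 (hetero-KO). Rgs14, the G protein regulator of CA2, was at −0.14 and 0.25 for genotype at 4 and 18 months, and at −0.07 and 0.32 for age in WT and hetero-KO. For both genes the smaller difference of each comparison was within the spot error: 0.20 and −0.07 for Amigo2, −0.14 and −0.07 for Rgs14. Coch was at −0.11 at 4 months and 0.07 at 18 months for genotype, both within the spot error of about 0.20. Iyd was at −0.07 in WT and 0.22 in hetero-KO for age, also within its spot errors. Of all genes measured on all arrays, 61.9% had the same direction of the genotype difference at both ages and 69.1% the same direction of the age difference in both genotypes.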

How the results depend on the processing

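No paired analysis was possible because each group is 1 array, and no array can be left out of a fit with 1 residual degree of freedom. For genotype, 0 of the 9 markers passed in the scanner data as fitted, and 1 (Wfs1) passed after centring on neuron genes and with genes measured on all arrays alone; 1 met the rule of 1.5-fold in both pairs, added after seeing the data. For age, 2 passed as fitted, 3 (with Wfs1) with genes measured on all arrays alone, 1 with normexp background, 0 when a gene's probes were averaged, without a filter and without the variance trend, 6 with the authors' deposited table, and 2 met the rule of 1.5-fold. Counts of markers at least 2-fold apart were 0 between genotypes at 18 months and 2 with the authors' deposited table. Between ages in WT the count was 1, against 0 with normexp background and 6 with that table. Between ages in hetero-KO it was 0, against 2 after neuron centring and 4 with that table. Of all genes, 1.14%, 1.6% and 2.2% were at least 2-fold apart in these pairs as fitted. Their shares in the other settings are not given here. CATCTG was in the promoters of 2 markers and ACATCTG in 0.

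The authors' deposited table reversed age differences over both genotypes for Fibcd1 (−3.65), Rgs14 (−1.11), Amigo2 (−2.00), Cacng5 (−1.44) and Coch (1.63), which passed with it. It also turned the sign for Pcp4 (0.12), Wfs1 (−0.22) and Iyd (−1.46), which did not pass with that table. It left the sign of Mpped1, which passed. In WT it gave −4.16 for Fibcd1, −1.60 for Cacng5 and 1.68 for Coch, and in hetero-KO −3.14 for Fibcd1, −1.60 for Amigo2, −1.28 for Cacng5 and 1.58 for Coch, with 3.40 for the genotype difference of Iyd at 18 months. Its 18-month columns have no known source arrays, and the cause was not tested. Over the 9 settings with scanner data, the genotype difference of Wfs1 was −0.80 to −0.73. The age differences of Pcp4 and Coch were −0.88 to −0.68 and −1.28 to −0.90. Only normexp background, quantile normalization and neuron centring could move these 3 differences, and the other settings left them as fitted. Over all genes, 0 to 512 passed for genotype and 0 to 9885 for age; for age 425 rose and 187 fell as fitted, against 53 and 117 with quantile normalization, so that 69.4% and 31.2% of the calls were rises. Filters on dim genes leave the pairs of arrays as they are, since all 9 markers were measured on all 4 arrays. Iyd is limited by its spot error of 0.29 to 0.41, the highest of the 9 markers.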
